A study of Mus musculus with 48 samples.

Results

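The genes described here encode 9 ATP-binding cassette (ABC) transporters that pump drugs, toxins and their conjugates out of cells. They were chosen by symbol in GENCODE vM21, with earlier results of these data known, from the 55401 genes of a table of colon read counts. The members are Abcb1a, Abcb1b, Abcg2 and Abcc1 to Abcc6. All 9 passed the filter on low counts in the 46 mice used for the tests and were tested among 14475 genes. The table comes from a study of the intestinal clock, which asked what the loss of Bmal1 in intestinal epithelium changes in the colon over the circadian day.

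Colon tissue was taken from 48 male mice on a C57BL/6J background, aged 18 to 20 weeks, on the second day of constant darkness. The mice had been housed singly with a running wheel and fed chow ad libitum. The 24 Bmal1 IEC-/- mice carried floxed Bmal1 alleles and a Cre driven by the Villin promoter, which is active in intestinal epithelium, so that other cells of the colon kept the gene. The 24 controls were littermates with the same floxed alleles (Bmal1 fl/fl) and no Cre. Each genotype held 4 mice at each of 6 circadian times (CT), namely CT1, CT5 and CT9 in the circadian day and CT13, CT17 and CT21 in the night. Each mouse is a separate animal and no batch is given.

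The total count per mouse ran from 3144997 to 4785844 reads. Bmal1 itself, listed as Arntl, averaged 131 ± 96.8 (SD, n = 24) normalized counts in control mice, with a range from 15.8 to 283. In Bmal1 IEC-/- mice it averaged 126 ± 23.0 (SD, n = 22), with a range from 84.9 to 180.4. The mean thus hardly differed, but a count of the whole gene in whole tissue does not isolate the deleted part in epithelium. The clock output genes Nr1d1 and Nr1d2 were lower in Bmal1 IEC-/- mice, as given further on. A pair of Bmal1 IEC-/- mice at CT1 (SV384 and SV385) correlated least with the rest, SV384 only narrowly. The median correlation of their log counts with the other mice was 0.949 and 0.929, against 0.950 to 0.967 for the remaining 46, and the 7 smooth muscle markers of SV385 summed to 3549 normalized counts, against 12532 to 20273 in the Bmal1 IEC-/- mice used, a range that holds the 13310.0 of SV384. That the study's normalization leaves this pair out was inferred from the size factors in its rhythm table, since the labels do not say so. Values are therefore given over 46 mice, 24 control and 22 Bmal1 IEC-/-, with only 2 Bmal1 IEC-/- mice at CT1, and over all 48 where that matters. A normalized count is a read count divided by the mouse's DESeq2 size factor over all 48 mice.

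ABC transporters of this kind use ATP to move substrates against their gradient. In the gut, P-glycoprotein (Abcb1a and Abcb1b), BCRP (Abcg2) and MRP2 (Abcc2) lie in the apical membrane of epithelial cells and return substrates to the lumen. MRP1 (Abcc1) and MRP3 (Abcc3) lie mainly in the basolateral membrane and export conjugates towards the blood. The core clock protein BMAL1 drives transcription with CLOCK from E-box motifs, and its targets include the Rev-erb repressors, which bind a different element.

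Windows upstream of a start were at hand in RefSeq's GRCm38.p6 table for 6 members (Abcb1a, Abcb1b, Abcc2, Abcc4, Abcc5 and Abcg2), with several starts for Abcc4 and Abcg2, 9 windows in all. Each holds the 250 bases before the start. The window of Abcb1a lies before a start at base 8567091, far upstream of the GENCODE gene start at 8660077, so that it says nothing of the sequence at the latter. The windows were searched on both strands for the E-box CACGTG, its variant CACGTT and the D-box as TTATGTAA or TTACGTAA. The search also covered the core AGGTCA, which Rev-erb and ROR factors share, the Ah receptor core GCGTG and the antioxidant response core TGACNNNGC. The E-box was in 1 of the 9 windows, at the upstream start of Abcc4 205 to 200 bases before it, and in 6.02% of all 32851 windows. The variant and the D-box were in none of the 9, against 3.85% and 0.931% of all windows. The core AGGTCA was in 3 windows, 1 of Abcc2 and 2 of Abcg2, and in 14% of all windows. The antioxidant core was in 3 windows, 1 of Abcc2 and 2 of Abcc4, against 10.2% of all windows, and the Ah receptor core was in 1 window of Abcc4, against 28.2%. A match is a run of letters and was not tested as a binding site.

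The windows of Abcc2 and Abcg2 that hold AGGTCA are shown because these members differed by more than 1.5-fold between genotypes over all circadian times. Abcb1a was 1.48-fold lower by that measure and passed 1.5-fold only at single times and by night. The windows shown lie on the plus strand at chr19:43782058-43782307 for Abcc2, and at chr6:58584283-58584532 and chr6:58640296-58640545 for the upstream and the downstream start of Abcg2. Capitals mark AGGTCA or its reverse complement and, in Abcc2, also the antioxidant core, and the start follows the last base. GENCODE vM21 places the start of Abcc2 at base 43782192, within the window, so that both marked runs of Abcc2 lie downstream of that start.
Abcc2: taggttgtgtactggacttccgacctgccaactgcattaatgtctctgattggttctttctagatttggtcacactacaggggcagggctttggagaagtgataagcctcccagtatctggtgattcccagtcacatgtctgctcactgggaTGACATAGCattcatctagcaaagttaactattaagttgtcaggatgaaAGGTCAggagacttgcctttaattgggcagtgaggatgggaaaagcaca
Abcg2, upstream start: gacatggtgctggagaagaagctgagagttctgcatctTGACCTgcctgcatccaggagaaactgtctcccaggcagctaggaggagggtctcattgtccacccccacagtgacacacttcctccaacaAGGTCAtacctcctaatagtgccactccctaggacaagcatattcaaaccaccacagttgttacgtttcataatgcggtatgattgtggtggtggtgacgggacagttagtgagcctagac
Abcg2, downstream start: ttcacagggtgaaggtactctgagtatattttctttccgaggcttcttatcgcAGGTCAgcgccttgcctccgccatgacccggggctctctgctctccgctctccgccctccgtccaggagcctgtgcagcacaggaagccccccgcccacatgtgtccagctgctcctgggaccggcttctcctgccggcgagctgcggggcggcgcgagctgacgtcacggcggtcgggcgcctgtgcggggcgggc

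The level per kb divides by the union of a gene's annotated exons, from 5480 bases in Abcb1a to 15092 in Abcc1. Which exons are used in colon was not examined, so that genes with a long union may read too low. By this measure Abcb1a was by far the most abundant of the 9 in control colon, with a mean of 868 normalized counts per kb over 24 mice (range 575 to 1193). Abcc3 followed at 215 and Abcg2 at 62.2 normalized counts per kb. Neither the ranges of Abcb1a and Abcc3 nor those of Abcc3 and Abcg2 overlapped over the control mice. Abcc5 (28.6 per kb), Abcc1 (17.2 per kb) and Abcc4 (11.2 per kb) came next, and from Abcg2 to Abcc4 each gene's range overlapped that of its neighbour, while those of Abcc4 and Abcc6 were apart. Abcc6 and Abcc2 had nearly the same control mean, 3.05 and 2.99 per kb, and Abcb1b was lowest at 0.843 per kb, with ranges that overlapped from Abcc6 to Abcb1b. Of the P-glycoprotein pair, Abcb1a had at least 2008 raw reads in each mouse, whereas Abcb1b had between 1 and 13 raw reads per mouse, and a count of 0 would allow up to 3.

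In control mice, Abcb1a made up 71.8% of the summed level per kb of the 9 genes, Abcc3 17.8% and Abcg2 5.15%. In Bmal1 IEC-/- mice the shares were 60.4%, 23.1% and 9.93%. The sum over the 9 genes was 1209 ± 180.2 (SD, n = 24) normalized counts per kb in control mice and 978 ± 200.1 (SD, n = 22) in Bmal1 IEC-/- mice, whose ranges overlapped (854 to 1584 and 647 to 1381).

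**Figure D1:**
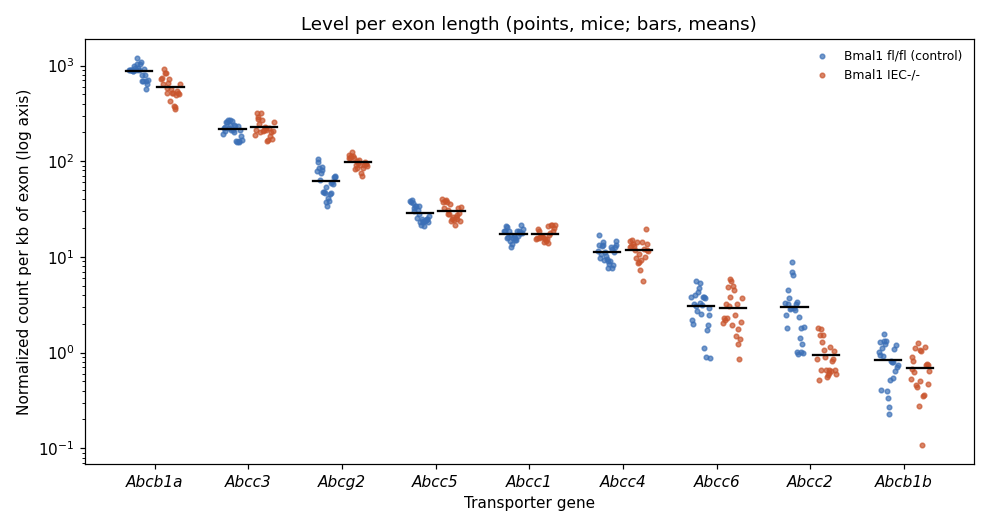
Normalized count per kb of exon, on a log axis, for the 9 transporter genes in order of their control mean, with a point for each of 24 control and 22 Bmal1 IEC-/- mice and a bar at each mean. Abcb1a leads at 868 per kb in control mice and Abcb1b is lowest at 0.843 per kb, while the genotypes separate most in Abcc2, Abcg2 and Abcb1a.

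Over all circadian times, 4 of the 9 members differed between genotypes. Abcg2 and Abcc5 were higher in Bmal1 IEC-/- mice and Abcc2 and Abcb1a were lower (edgeR quasi-likelihood test with circadian time in the model, Benjamini-Hochberg adjusted p under 0.05). The share of all 14475 genes called by this test was 11.1%, with 5.44% higher and 5.64% lower. With a fold change of at least 1.5 as well, 2 members were called, Abcg2 and Abcc2, against 1.36% of all genes. The median log2 fold change was 0.02 over the 9 members and 0.00 over all genes tested. The apical pumps therefore went different ways, with Abcg2 up and Abcc2 and Abcb1a down.

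Abcg2 (GRCm38 chromosome 6, 58584523 to 58695676, plus strand) encodes BCRP, an apical pump that works as a dimer and exports sulfate conjugates, urate and many drugs. At CT1 its normalized count was 637, 806, 851 and 685 in the control mice and 948 and 887 in the Bmal1 IEC-/- mice. At CT5 it was 513, 612, 716 and 660.4 in control and 881, 933, 1007 and 919.6 in Bmal1 IEC-/- mice. At CT9 the control mice had 389.9, 386, 383 and 439 and the Bmal1 IEC-/- mice 879, 676, 735 and 821. Up to here, each Bmal1 IEC-/- mouse lay above each control mouse of the same time, and the level fell from CT1 to CT9 in control mice. At CT13 the control mice reached their lowest values, 304, 280.4, 335 and 310.3, against 690.0, 777, 838 and 751 in Bmal1 IEC-/- mice. At CT17 the values were 368, 481, 379 and 491 in control and 613, 577, 689.5 and 748 in Bmal1 IEC-/- mice. At CT21 they were 471, 555, 559 and 568 in control and 796, 767, 768 and 726 in Bmal1 IEC-/- mice. The genotypes overlapped at none of the 6 times, whereas the share of all genes without overlap was 31.0% at CT1, where 2 Bmal1 IEC-/- mice were used, 4.08% at CT5, 4.23% at CT9, 13.1% at CT13, 4.75% at CT17 and 4.58% at CT21.

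The mean of Abcg2 was 507 ± 160.3 (SD, n = 24) in control mice and rose to 792 ± 111 (SD, n = 22) without epithelial Bmal1, by 0.73 on the log2 scale (SE 0.06, edgeR quasi-likelihood adjusted p = 9.71e-13) or 1.66-fold. The difference was past the threshold at CT5, CT9, CT13, CT17 and CT21 and largest at CT13, at 2.48-fold (log2 fold change 1.31, SE 0.10, edgeR adjusted p = 1.99e-12). At CT1 it was 0.30 on the log2 scale (SE 0.12, edgeR adjusted p = 0.188), and with all 48 mice it was 0.36 (SE 0.10, edgeR adjusted p = 0.00865). The call at CT21 (1.42-fold, edgeR adjusted p = 0.00523) was lost without control mouse SV433, at an edgeR adjusted p of 0.0542.

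Abcc2 (chromosome 19, 43782192 to 43840740, plus strand) encodes MRP2, an apical pump for glutathione and glucuronide conjugates. Its counts were low, at 5 to 71 raw reads per mouse. At CT1 its normalized count was 27.8, 21, 15.3 and 27.2 in control and 7.34 and 15.3 in Bmal1 IEC-/- mice. At CT5 the values were 38.1, 31.5, 24.5 and 25.1 in control and 4.46, 13, 15 and 5.6 in Bmal1 IEC-/- mice. At CT9 the control mice had 59.3, 74.6, 54.8 and 25.1 and the Bmal1 IEC-/- mice 11, 13.1, 9.03 and 7.67. The control level thus peaked at CT9, with a mouse at 25.1 well under the other 3, and all Bmal1 IEC-/- mice stayed at or under 15.3. At CT13 the values were 23.7, 27.7, 29 and 8.62 in control and 5.6, 4.77, 5.02 and 5.24 in Bmal1 IEC-/- mice. At CT17 they were 8.15, 20, 12.1 and 15.3 in control against 5.65, 9.68, 5.52 and 6.95. At CT21 they were 8.56, 10.4, 8.52 and 15.9 in control against 7.3, 8.96, 5.56 and 5.1. The groups did not overlap at CT5, CT9 and CT13 and overlapped at CT17 and CT21. At CT1 they met, since the lowest control mouse and the highest Bmal1 IEC-/- mouse both had 15 raw reads.

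Over all times Abcc2 averaged 25.5 ± 16.9 (SD, n = 24) normalized counts in the controls, compared with 8.04 ± 3.43 (SD, n = 22) in mice without epithelial Bmal1, which was 2.94-fold lower (SE 0.17 on the log2 scale, edgeR quasi-likelihood adjusted p = 1.48e-09). The difference was past the threshold at CT5, CT9 and CT13. It was largest at CT9, at 5.09-fold lower (log2 fold change -2.35, SE 0.33, edgeR adjusted p = 3.00e-06), and was 4.25-fold lower at CT13 (edgeR adjusted p = 0.00029). At CT5 it was 3.11-fold lower (edgeR adjusted p = 0.0084), a call that was lost on leaving out control mouse SV442 or Bmal1 IEC-/- mouse SV439 or SV478, with edgeR adjusted p from 0.0548 to 0.077. At CT1 the log2 fold change was -0.997 over 46 mice (SE 0.44, edgeR adjusted p = 0.23) and -1.37 over all 48 (SE 0.37, edgeR adjusted p = 0.0061).

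Abcb1a (chromosome 5, 8660077 to 8748575, plus strand) encodes the P-glycoprotein of mouse intestine, an apical pump of broad specificity. At CT1 its normalized count was 4872, 4919.5, 4950.2 and 4898 in control and 3926 and 4067 in Bmal1 IEC-/- mice. At CT5 the values were 4773, 4765, 5425 and 5102 in control and 3547, 4986, 4565 and 4587 in Bmal1 IEC-/- mice. At CT9 they were 4918, 6535, 5723 and 5118 in control and 3164, 2799, 3599 and 4006 in Bmal1 IEC-/- mice. The groups overlapped at CT5 and were apart at CT1 and CT9, as the control mean rose to 5574 at CT9 and the mean of Bmal1 IEC-/- mice fell to 3392. At CT13 the control mice had 4930.4, 5654, 6029 and 4319 and the Bmal1 IEC-/- mice 2356, 3133, 2858 and 2833. At CT17 the values were 3764, 3801, 5092 and 4332 in control against 2058, 1944, 2019.8 and 2716. At CT21 they were 3149, 3762, 3520.2 and 3834 in control against 2993, 2857, 2739 and 3483. The groups were apart at CT13 and CT17 and overlapped again at CT21.

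The mean of Abcb1a was 4758 ± 826 (SD, n = 24) in the controls and fell to 3238 ± 852 (SD, n = 22) after the deletion, 1.48-fold lower (log2 fold change -0.56, SE 0.07, edgeR quasi-likelihood adjusted p = 1.16e-08). It was 1.64-fold lower at CT9, 1.88-fold lower at CT13 and 1.94-fold lower at CT17, where the edgeR adjusted p was 4.09e-07. At CT1, CT5 and CT21 the log2 fold changes were -0.30, -0.18 and -0.24, with edgeR adjusted p of 0.286, 0.92 and 0.592. The exons of Abcb1a share 553 bases with a gene model on the opposite strand, Gm42686, whose total over all mice was 1301 reads against 195313 for Abcb1a. Whether the counting used strand is not given in the sources used here.

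Abcc5 (chromosome 16, 20331303 to 20426394, minus strand) encodes MRP5, an exporter of cyclic nucleotides and nucleotide analogues. It ranged from 227 to 423 normalized counts (median 278) in control and from 231 to 432 (median 304) in Bmal1 IEC-/- mice, so that the genotypes overlapped widely. The time means were higher in Bmal1 IEC-/- mice at all 6 times, and the model with genotype and time gave a log2 fold change of 0.12 (SE 0.04, edgeR quasi-likelihood adjusted p = 0.0245), or 1.09-fold. The call rested on which mice were used. SV384 and SV385 had 209.7 and 253 normalized counts at CT1, where the other Bmal1 IEC-/- mice had 432 and 404 and control mice 391 to 423, and with all 48 mice the log2 fold change was 0.05 (edgeR adjusted p = 0.589). It also missed the threshold without circadian time in the model (edgeR adjusted p = 0.686) and when all genes with at least 1 count were tested (edgeR adjusted p = 0.0757).

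The other 5 members did not pass the genotype test. Abcc3, the basolateral exporter MRP3 for glucuronides and bile acids, averaged 1224 ± 203 (SD, n = 24) normalized counts in the controls, compared with 1289 ± 261 (SD, n = 22) after the deletion, and the 95% interval of its fold change ran from 0.973 to 1.13. Abcc1, which encodes MRP1 and exports glutathione conjugates and leukotrienes, averaged 259.6 ± 34.2 (SD, n = 24) and 262 ± 37.2 (SD, n = 22), with an interval from 0.958 to 1.08. Abcc4, which encodes MRP4 and exports cyclic nucleotides and prostanoids, averaged 71.8 ± 15.5 (SD, n = 24) and 75.9 ± 19.4 (SD, n = 22), with an interval from 0.957 to 1.19. For these 3 genes the intervals leave out a change of 1.5-fold.

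The remaining pair was measured less precisely. Abcc6 encodes MRP6, known for the release of ATP from liver cells and for its loss in pseudoxanthoma elasticum, and averaged 17.4 ± 7.37 (SD, n = 24) in the controls, compared with 16.9 ± 8.41 (SD, n = 22) after the deletion (interval 0.772 to 1.19). Abcb1b, the second P-glycoprotein gene of the mouse, had 6.73 ± 3.01 (SD, n = 24) and 5.47 ± 2.50 (SD, n = 22), with an interval from 0.629 to 1.09. That interval takes in a level 1.5-fold lower, whereas the interval of Abcc6 does not. Abcb1b shares 143 exon bases with an antisense gene, Gm5106, that had 5 reads in all. The edgeR adjusted p of the 5 genes ran from 0.435 for Abcb1b to 0.863 for Abcc6.

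**Figure D2:**
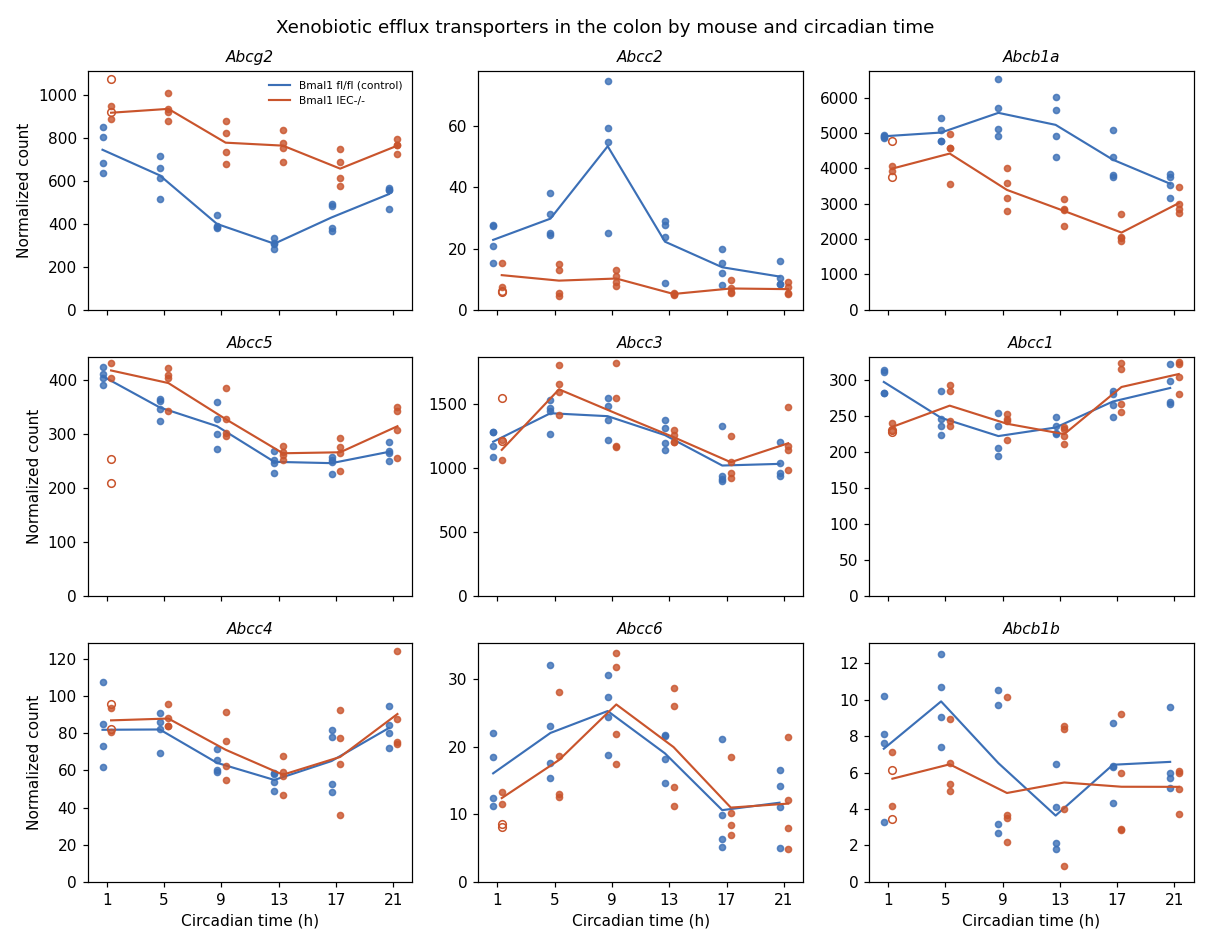
Normalized count of each transporter gene against circadian time in hours, with a point per mouse, lines through the means of the mice used, and open circles for the Bmal1 IEC-/- pair at CT1 that was left out. Abcg2 of Bmal1 IEC-/- mice lies above control at all 6 times, Abcc2 loses the control peak of 53.5 at CT9, and Abcb1a of Bmal1 IEC-/- mice lies below control at CT9, CT13 and CT17.

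At single circadian times, 11 of the 54 member-by-time contrasts passed the threshold (edgeR quasi-likelihood test, Benjamini-Hochberg over all genes at that time), all in Abcg2, Abcc2 or Abcb1a. At CT9 and at CT13, 3 of 9 members were called, against 1.82% and 4.72% of all genes. At CT5 (Abcg2, Abcc2) and CT17 (Abcg2, Abcb1a) 2 members were called, against 0.456% and 1.11% of all genes, and at CT21 only Abcg2, against 0.394%. At CT1, 0 of 9 members were called in edgeR and 0 in DESeq2, 4 had an unadjusted edgeR p under 0.05, and 1.51% of all genes were called. With all 48 mice the filter kept 14259 genes and dropped Abcb1b, and the CT1 contrast called 4 of the 8 members left (Abcg2 higher, Abcc1, Abcc2 and Abcc5 lower) and 25.2% of all genes.

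By period, the same members were called in day and in night, Abcg2 higher and Abcc2 and Abcb1a lower, against 2.76% of all genes by day and 4.30% by night (edgeR quasi-likelihood test). Abcg2 was 1.47-fold higher by day and 1.71-fold by night, Abcc2 3.43-fold and 2.46-fold lower, and Abcb1a 1.32-fold and 1.63-fold lower. The difference between day and night was itself not past the threshold for any member, with 0 calls in edgeR and 0 in DESeq2, and 1 unadjusted edgeR p under 0.05, that of Abcb1a (log2 difference -0.31, SE 0.14, edgeR adjusted p = 0.492). Of all genes, 0.0691% were called for this interaction.

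**Figure D3:**
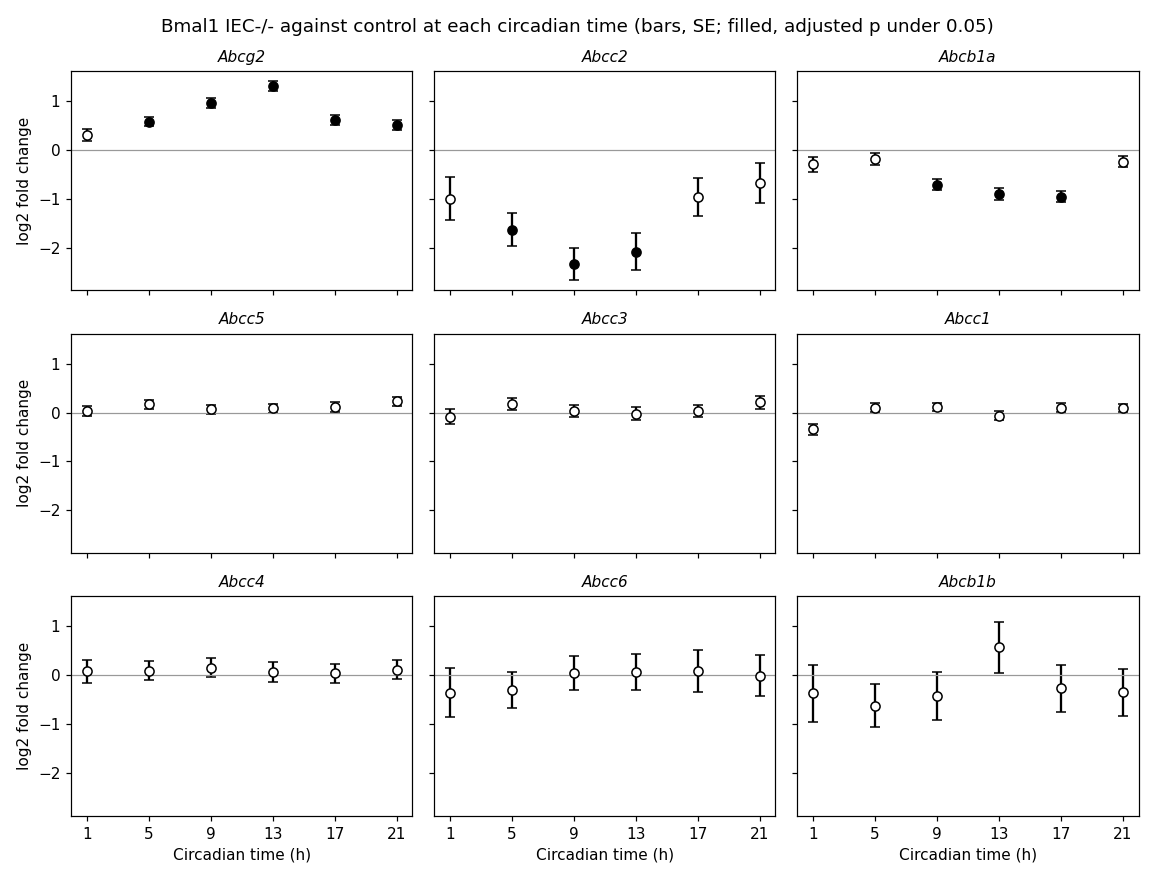
Log2 fold change of Bmal1 IEC-/- against control mice at each circadian time (hours) for each transporter gene, with bars of 1 SE and filled points where the edgeR adjusted p was under 0.05. Abcg2 peaks at 1.31 at CT13, Abcc2 reaches -2.35 at CT9, Abcb1a reaches -0.96 at CT17, and no point is filled for the other 6 genes.

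In control mice, 8 of the 9 members were rhythmic by JTK_cycle (period 24 h, p under 0.05), against 24.1% of the 32471 genes with at least 1 count. The exception was Abcb1b (exact JTK_cycle p = 0.142), the gene with fewest reads, which was called without control mouse SV469 (exact JTK_cycle p = 0.0338). Rhythms of Abcg2 (exact JTK_cycle p = 8.20e-09) and Abcc5 (JTK_cycle p = 6.30e-06) had the smallest p values. In Bmal1 IEC-/- mice 7 members were rhythmic, against 14.2% of the same 32471 genes. These 32471 genes include ones with too few reads for the filter that kept 14475 genes. All 9 members passed that filter, so that neither share is a like-for-like background for them. Abcc2 was the member called in control and not in Bmal1 IEC-/- mice (exact JTK_cycle p = 0.28). Of all genes called in control, 55.7% were not called in Bmal1 IEC-/- mice. With Benjamini-Hochberg adjustment over genes the Bmal1 IEC-/- count was 3 (Abcb1a, Abcc5 and Abcg2) and the control count stayed at 8.

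The control peaks of the members fell between late night and late day. By the cosine fitted in edgeR, Abcc1 peaked at CT22.2, Abcc4 at CT0.831, Abcg2 at CT1.22, Abcc5 at CT3.42, and Abcc3, Abcc6, Abcc2 and Abcb1a between CT7.17 and CT8.33. The log2 amplitude in control mice ran from 0.22 for Abcc1 to 1.02 for Abcc2. The highest time mean of Abcc2, 53.5 ± 20.7 (SD, n = 4) at CT9, was 4.92 times its lowest, 10.9 ± 3.49 (SD, n = 4) at CT21. For Abcg2, the mean at CT1, 745 ± 100.4 (SD, n = 4), was 2.42 times that at CT13, 307 ± 22.5 (SD, n = 4). The 2 genes therefore ran in different phases in control colon, Abcc2 with its peak in the late day and Abcg2 with its peak at the start of the day.

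A test of the change of rhythm itself called 2 members, Abcg2 and Abcb1a, against 0.940% of all genes (edgeR quasi-likelihood test on cosine and sine by genotype). Abcg2 had a log2 amplitude of 0.59 in control mice, compared with 0.22 after the deletion, where its fitted peak lay 2.74 h later (edgeR adjusted p = 0.000105). Abcb1a kept a rhythm. Its log2 amplitude went from 0.27 to 0.46 and its fitted peak moved from CT8.33 to CT4.18 (edgeR adjusted p = 0.00269). For both genes the test takes amplitude and peak together, so that a shift of the peak was not tested by itself. For Abcc2 the amplitude went from 1.02 to 0.43, and this change did not pass the threshold (edgeR adjusted p = 0.131), although the rhythm was called in 1 genotype only.

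Abcb1b, which was called rhythmic in neither genotype, had a log2 amplitude of 0.45 in control mice, compared with 0.11 after the deletion, and an edgeR adjusted p of 0.882 for a change. For 5 further members the fitted amplitudes and peaks lay near each other. Abcc5 had a log2 amplitude of 0.36 and 0.35 with peaks at CT3.42 and CT3.12, and Abcc6 had 0.62 in both with peaks at CT7.60 and CT9.00. Abcc3 had 0.27 in both, Abcc4 0.31 and 0.34, and Abcc1 0.22 and 0.18. The edgeR adjusted p of these 5 for a change of rhythm ran from 0.924 to 0.988. The Bmal1 IEC-/- rhythm of Abcc1 was close to the threshold (exact JTK_cycle p = 0.0386) and was not called with all 24 mice of that genotype (JTK_cycle p = 0.212) or on leaving out any of 13 single mice (JTK_cycle p from 0.056 to 0.118). That of Abcc4 (exact JTK_cycle p = 0.0213) was lost without SV449 or SV479, at an exact p of 0.056 and 0.0551.

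**Figure D4:**
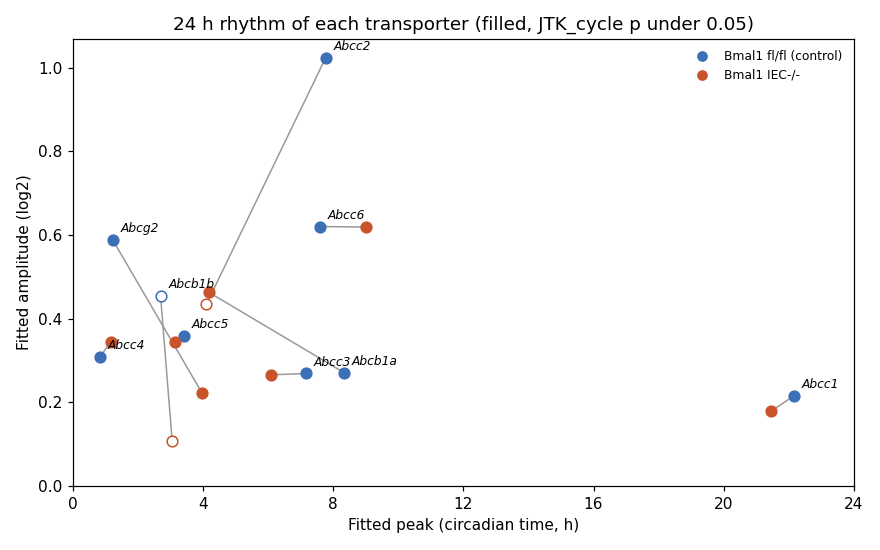
Fitted log2 amplitude against fitted peak time (circadian time, hours) of each transporter, with a line from the control to the Bmal1 IEC-/- value and filled points where JTK_cycle gave p under 0.05. Abcc2 drops from 1.02 to 0.43, Abcg2 from 0.59 to 0.22, and Abcb1a rises from 0.27 to 0.46 while its peak moves from CT8.33 to CT4.18.

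Genes whose 12 genotype-by-time means ran most like those of the leading members were sought among 14466 other genes by Pearson's r of log2 CPM, as a description. Abcg2 was most like Ccl28 (r = 0.989), an epithelial chemokine, Slc35f5 (r = 0.983) and Il1r1 (r = 0.979), the interleukin 1 receptor. Abcc2 was most like Ank3 (r = 0.913), a membrane adaptor, Tns4 (r = 0.911), a focal adhesion protein, and Slc22a4 (r = 0.91), a carrier of ergothioneine. Abcb1a was most like Sel1l3 (r = 0.964), Slc26a3 (r = 0.94), the chloride-bicarbonate exchanger of colonocytes, and Slc35d1 (r = 0.93), a nucleotide sugar carrier. Among the members themselves the pair most alike was Abcc2 and Abcb1a (r = 0.84), followed by Abcc3 and Abcc6 (r = 0.815). The 12 means share genotype and time, so that these values carry no test.

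Of 34 other ABC genes tested, 3 differed between genotypes, 1 higher and 2 lower, which is 8.82% against 11.1% of all genes. Abca12, a lipid transporter, was 1.22-fold higher, Abcd3, a peroxisomal carrier of branched-chain acids, 1.14-fold lower and Abcg1, a sterol exporter, 1.27-fold lower. Of the 21 solute carriers of xenobiotics and bile acids tested, 9 differed, 1 higher and 8 lower, or 42.9%. Slc51a, a subunit of the basolateral bile acid exporter, was 1.51-fold higher (log2 fold change 0.60, SE 0.06, edgeR adjusted p = 4.19e-11). Slc22a4 was 3.24-fold lower (edgeR adjusted p = 1.49e-10), Slc10a2, the apical sodium-dependent bile acid importer, 1.58-fold lower (edgeR adjusted p = 8.39e-08) and Slco2a1, the prostaglandin carrier, 1.28-fold lower (edgeR adjusted p = 1.46e-07).

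Of 28 nuclear receptors and other sensors tested that act on transporter genes, 1 was higher and 3 were lower, which is 14.3% against 11.1% of all genes. Nr1h4, the bile acid receptor FXR, was 1.21-fold higher, Vdr, the vitamin D receptor, 1.22-fold lower, Hif1a 1.22-fold lower and Ppara 1.23-fold lower, with edgeR adjusted p from 8.29e-08 (Vdr) to 0.0061 (Ppara). Of the 6 genes tested from a list of membrane anchors of transporters and their partners, 4, or 66.7%, had lower RNA counts in whole tissue. Among them were Slc9a3r1, the scaffold NHERF1, at 1.38-fold (edgeR adjusted p = 5.13e-07), Pdzk1ip1 at 1.21-fold and Msn, moesin, at 1.14-fold. The clock and clock output genes served as the check of the deletion. Of 21, 5 were higher and 8 lower, which is 61.9% against 11.1% of all genes. Npas2 was 2.62-fold and Cry1 2.42-fold higher, and Nr1d2 was 3.34-fold, Nr1d1 2.80-fold and Ciart 2.64-fold lower.

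Markers of colon cell types were read beside these results, with 11.1% of all genes called by the same genotype test. The 12 epithelial markers summed to 32061 to 46370.4 normalized counts in control (median 38433) and 38245 to 50129 in Bmal1 IEC-/- mice (median 41204), with 5 of 12 called higher and 1, Epcam, lower. Of 8 colonocyte markers 4 were lower and 0 higher, among them Slc26a3 at 1.70-fold, Car4 at 1.46-fold and Guca2a at 1.23-fold, and their sum ran from 43900 to 63762 in control and from 42876 to 64385 in Bmal1 IEC-/- mice. Of 7 goblet cell markers, 2 were higher and 2 lower. Smooth muscle, fibroblast and endothelial sums had medians 0.877, 0.887 and 0.881 times those of control, with 2 markers of each list called lower. Of the 9 markers of small intestine epithelium, 5 had a median under 3 normalized counts, whereas Sis averaged 288 in control mice. The sum of the 9 had a median of 360 in control (range 244 to 562) and 149 in Bmal1 IEC-/- mice (range 93.0 to 293). Of the 4 tested, 1 was higher (Alpi, 1.57-fold) and 2 were lower (Sis, 7.41-fold, and Rbp2, 1.39-fold). Of macrophage, lymphocyte, enteric neuron and glia, and mast cell markers, 1 was higher (Cd14) and 1 lower (S100b) of 23 tested. Only 1 of the 5 mast cell markers was tested. The lymphocyte sum had a median 1.23 times that of control, with ranges that overlapped (755 to 2233 in control and 776 to 2558). The macrophage, neuron and glia, and mast cell sums had medians 0.986, 0.903 and 0.881 times those of control. No marker of any list had 0 reads in all 46 mice. The part of these shifts in the transporter differences was not tested, and in whole tissue fewer cells of a type and less RNA per cell cannot be told apart.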

How the data were processed

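RNA of 48 mouse colons was sequenced. The authors trimmed reads (Trimmomatic 0.39), aligned them to mm10 with STAR 2.7.5c and used featureCounts 1.4.6 to count reads of mapping quality 4 or more over exons, per the submitters' notes and the study's methods. The deposited values are these read counts per gene, not normalized. The annotation and strand setting are not given in the sources used here, and symbols come from GENCODE vM21, in which 55141 of the 55401 gene IDs were found.

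Genotype, time, day and night, and change of rhythm were tested with edgeR 4.0.16 (filterByExpr, TMM, quasi-likelihood F test, Benjamini-Hochberg over 14475 genes, threshold 0.05) in 46 mice. SE is the size of the log2 fold change divided by the square root of F, and 95% intervals use 39 residual degrees of freedom. Rhythms within a genotype were tested with an own JTK_cycle (period 24 h, 12 phases, exact null distribution). DESeq2 1.42.0 gave the size factors and an alternative test. Peaks and amplitudes come from the cosine in edgeR. Level per kb divides by the union of exons. R 4.3.3 and Python 3.11.15 were used, and the scripts were tested on simulated data.

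The members were fixed by symbol, and they and the gene lists were chosen with earlier results of these data known. Named genes outside the members are, per list and direction, up to 3 with the smallest adjusted p, and the 3 genes most like each of the 3 members with the smallest adjusted p (log2 CPM, prior count 2). One gene that this rule names is not reported here. Counts of reads limit precision in Abcb1b, Abcc2 and Abcc6, and counting error alone allows 3 reads where 0 are counted.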

Additional observations from a re-analysis of the deposited data

Results flagged for a closer look

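The change of rhythm between genotypes was itself past the threshold for Abcg2 (edgeR adjusted p = 0.000105) and for Abcb1a (edgeR adjusted p = 0.00269), so that the genotype difference of both depended on circadian time.

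In 5 of 108 groups of 4 mice, all 48 mice included, a mouse lay further from the rest than Dixon's 95% limit allows, which chance alone gives in about 1 of 20 groups. For Abcc2, Bmal1 IEC-/- mouse SV480 at CT1 had 15.3 normalized counts against 5.79 to 7.34 in the other 3. For Abcc3, control mouse SV438 at CT17 had 1327 against 898 to 937. For Abcb1a, Bmal1 IEC-/- mouse SV481 at CT17 had 2716 against 1944 to 2058. For Abcg2, control mouse SV420 at CT9 had 439 against 383 to 389.9, and control mouse SV433 at CT21 had 471 against 555 to 568.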

How the results depend on the processing

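The alternatives were all 48 mice, DESeq2 size factors in edgeR, no filter, the DESeq2 test, and edgeR with no circadian time in the model. For rhythms they were a cosine in edgeR, CPM with TMM and all 24 Bmal1 IEC-/- mice. Counts of called members under these stayed within 1.5 times the reported ones. Leaving out each of 46 mice in turn gave 4 members with a genotype difference each time, 2 to 3 with a fold change of at least 1.5, 10 to 11 contrasts at single times, 3 members by day or night, 0 with a day-night interaction, 2 with a changed rhythm, 8 to 9 rhythmic in control and 5 to 7 rhythmic in Bmal1 IEC-/- mice. The exception among these counts was the Bmal1 IEC-/- rhythm count, 7, which was 3 with Benjamini-Hochberg adjustment over genes. The log2 fold change of Abcc1 turned from 0.02 to -0.0045 with all 48 mice, neither being past the threshold. Abcb1b did not pass the filter over all 48 mice and has no value there. Where SV479 or SV480, the Bmal1 IEC-/- mice used at CT1, was left out, the lone mouse of that group is assumed to vary like the other groups. No paired analysis was possible because the mouse numbers are not shared between groups. Differences within a few reads, as in Abcb1b, were not detectable at this depth.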
